A study of Homo sapiens with 2 samples.

Results

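DNA repair genes were followed after ADGRF4 silencing in A549, an established cell line from a human lung adenocarcinoma. ADGRF4 encodes a receptor of the adhesion GPCR family. The 35 members were taken by gene symbol from 24462 distinct symbols in the count files, and each of the 35 was found. The study holds 2 libraries of poly(A)-primed 3' end counts. One is from A549 cells transfected with control siRNAs and 1 from A549 cells transfected with ADGRF4 siRNAs, so each treatment has 1 library and no replicate. Both cultures were kept in DMEM with serum. The siRNA sequences, dose and time after transfection were not used here. With 1 library per treatment no test and no p-value can be given, and each difference below is between these 2 libraries.

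Cells mend DNA by pathways that suit the lesion. Broken ends are sensed by the MRE11-RAD50-NBN (MRN) complex and the kinase ATM and are then either joined directly, by Ku, DNA-PK and ligase IV, or copied from the sister chromatid by homologous recombination with BRCA1 and BRCA2. Stalled forks call on ATR, CHEK1 and the Fanconi anemia proteins. Damaged bases are cut out by base excision repair, bulky adducts by nucleotide excision repair and replication errors by mismatch repair. Many of these genes are transcribed most in dividing cells.

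The control library held 10396047 counts and the ADGRF4 siRNA library 9825320. Repair genes made up 0.224% of the control library (23338 counts) and 0.205% of the other (20160 counts). With TMM scaling (below) their summed CPM was 2132 and 2160. ADGRF4 had 3 and 1 counts, neither above the limit of 3 that a zero count leaves, so loss of the target was not detectable and the labels are not checked by it. All 7 epithelial and A549 markers examined (KRT7, KRT8, KRT18, KRT19, EPCAM, AKR1B10 and AKR1C1) were read in both libraries, with 38 to 79367 counts, and CDKN2A, which is deleted in A549, had 0 counts in both. Markers of leukocytes, fibroblasts and endothelium summed to 7, 50 and 0 counts in the control and to 2, 46 and 3 in the knockdown, nearly all of the fibroblast sum being COL1A1 (50 and 45 counts).

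Promoters of 5 members are shown first, because the largest differences and several pair comparisons below concern these genes: ERCC2, the member with the highest ratio, CHEK2, that with the lowest, XRCC6, whose ratio parted from that of its Ku partner, and MRE11A and RAD50, whose ratios were close. Each run is 300 bases of RefSeq sequence on GRCh38.p14, from 250 bases before to 50 after an annotated start, 5′ to 3′ on the gene's strand. Capitals mark the CCAAT box (CCAAT, or ATTGG on the other strand) and, in XRCC6, the E2F core TTTGGCGC read on the other strand as GCGCCAAA. RAD50 has neither in this window. The windows are chr19:45370524-45370823 on the minus strand, chr22:28741771-28742070 on the minus strand, chr22:41621045-41621344 on the plus strand, chr11:94493795-94494094 on the minus strand and chr5:132556727-132557026 on the plus strand.
ERCC2: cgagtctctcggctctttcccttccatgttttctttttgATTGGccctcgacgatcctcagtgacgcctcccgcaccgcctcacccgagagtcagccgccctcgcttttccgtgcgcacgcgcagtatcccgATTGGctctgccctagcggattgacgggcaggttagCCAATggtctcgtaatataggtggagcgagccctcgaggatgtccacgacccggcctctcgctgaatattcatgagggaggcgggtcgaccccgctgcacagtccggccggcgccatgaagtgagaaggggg
CHEK2: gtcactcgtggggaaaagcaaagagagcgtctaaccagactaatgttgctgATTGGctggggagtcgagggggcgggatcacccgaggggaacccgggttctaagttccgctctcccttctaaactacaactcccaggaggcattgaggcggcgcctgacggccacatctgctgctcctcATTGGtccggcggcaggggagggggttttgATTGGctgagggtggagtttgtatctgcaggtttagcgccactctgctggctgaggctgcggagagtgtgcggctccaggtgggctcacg
XRCC6: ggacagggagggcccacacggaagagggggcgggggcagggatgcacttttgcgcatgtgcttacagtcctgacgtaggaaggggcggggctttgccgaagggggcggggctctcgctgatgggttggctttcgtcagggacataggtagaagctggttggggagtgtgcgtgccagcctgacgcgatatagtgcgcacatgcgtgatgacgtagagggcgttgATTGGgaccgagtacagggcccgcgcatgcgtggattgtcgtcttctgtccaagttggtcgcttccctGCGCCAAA
MRE11A: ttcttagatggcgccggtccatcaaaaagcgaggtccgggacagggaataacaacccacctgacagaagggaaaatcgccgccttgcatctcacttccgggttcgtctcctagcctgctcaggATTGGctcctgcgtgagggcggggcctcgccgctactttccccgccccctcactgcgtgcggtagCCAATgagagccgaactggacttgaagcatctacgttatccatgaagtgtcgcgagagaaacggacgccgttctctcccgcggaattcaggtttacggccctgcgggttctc
RAD50: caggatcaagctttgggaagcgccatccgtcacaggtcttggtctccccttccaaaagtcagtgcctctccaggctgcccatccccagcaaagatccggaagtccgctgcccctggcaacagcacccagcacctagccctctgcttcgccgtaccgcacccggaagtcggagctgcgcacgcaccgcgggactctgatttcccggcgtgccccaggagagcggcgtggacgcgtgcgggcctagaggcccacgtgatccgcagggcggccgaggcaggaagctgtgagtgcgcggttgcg

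The table of promoters held 31 of the 35 members. A CCAAT box on either strand was found in at least 1 listed window of 19 of these (61.3%), against 43.7% of 8789 compared genes and 39.7% of 27305 genes in the table, scored over all their listed windows in the same way. In the first listed window alone it was found in 16 (51.6%), against 37.0% of compared genes. The E2F core TTTCCCGC was found in 4 (MSH6, FANCD2, XRCC2 and LIG1; 12.9%), against 3.41% of compared genes, and TTTGGCGC in 1 (3.23%), against 1.33%. The element TTTGAA, known as a cell cycle homology region, was found in 5 (16.1%, against 13.7%), or in 3 (9.68%, against 9.51%) by first windows, and its variant TTCGAA and the NRF1 core motif in 0 (against 2.37% and 2.72%). The CCAAT holders included both the lowest and the highest ratios, and of the 4 TTTCCCGC holders 1 (MSH6) was at least 1.5-fold lower and 3 lay between the limits. A match is a description of letters, not evidence of binding.

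Of the 35 genes, 33 averaged 30 counts or more per library and were compared. CPM values are counts scaled to a common library size with edgeR's TMM factors, and the log2 ratio is that of (knockdown CPM + 1) over (control CPM + 1). Each gene's fold is its CPM quotient with nothing added, followed by an exact 95% Clopper-Pearson interval that covers counting error only. At least 1.5-fold higher after ADGRF4 siRNA were 5 genes (15.2%), against 21.1% of the 11771 symbols compared, and at least 1.5-fold lower were 7 (21.2%), against 22.3%. Neither share is a result about the repair genes, since each is near or under the background. Their median log2 ratio was -0.20, against -0.02 for all compared symbols, and the SD of their ratios was 0.65, against 0.77. At 2-fold, 1 was higher and 2 were lower, against 7.84% and 10.4% of all symbols. With total-count scaling, which moves the median of all compared symbols to -0.16, 2 were higher and 9 lower. The share of all symbols called under that scaling was not computed. After centring on the base composition of the 3' end (below), 6 were higher and 4 lower, against 15.1% and 19.2% of all symbols. Counting error was smaller than most differences: the interval of 27 of the 33 left out 1.

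**Figure D1:**
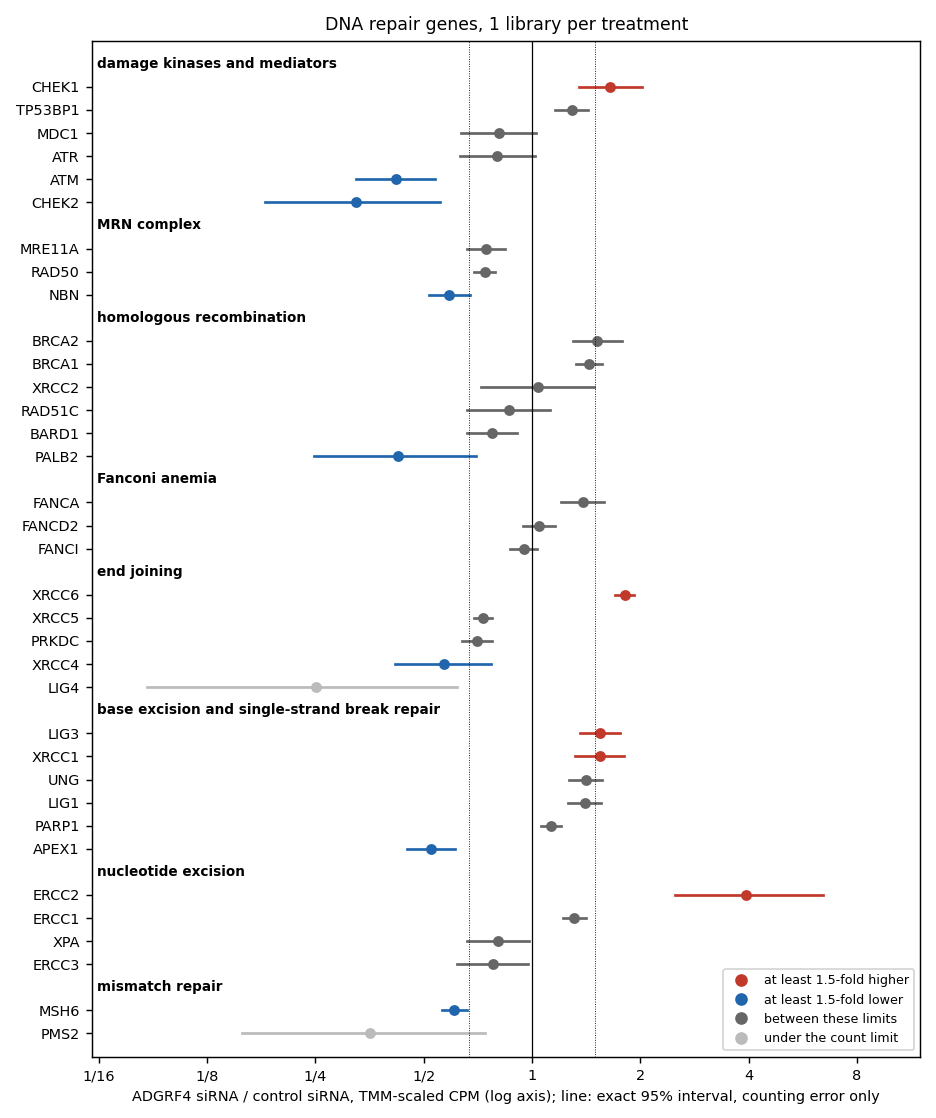
Ratio of TMM-scaled CPM, ADGRF4 siRNA over control siRNA (log axis), for each of the 35 genes by pathway; lines are exact 95% intervals for counting error, the dotted lines 1.5-fold, and each treatment is 1 library. ERCC2 lies furthest to the right at 3.94-fold higher, while CHEK2 and ATM lie at 3.08-fold and 2.39-fold lower; LIG4 and PMS2 (pale) were under the count limit.

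Among the damage kinases, ATM and CHEK2 were lower and CHEK1 was higher, while ATR lay between the limits. ATM, the kinase activated at broken ends, was read 244 times in the control and 87 times after knockdown, 2.39-fold lower (1.86 to 3.09). CHEK2, the effector kinase that ATM phosphorylates, had 65 and 18 counts, 3.08-fold lower (1.80 to 5.52). CHEK1, the effector of ATR that restrains origin firing and mitotic entry, had 170 and 239 counts, 1.65-fold higher (1.35 to 2.02). ATR itself, which senses single-stranded DNA at stalled forks, had 177 and 121 counts (1.25-fold lower, 0.984 to 1.58). CHEK2 has 4 named pseudogenes, so its reads are uncertain, and it passed the count limit through the control library. CHEK2 also shares exons with HSCB on the other strand, but whether at its 3' end was not examined. ATM shares exons with NPAT on the other strand. Exons of CHEK1 overlap STT3A on the same strand, with 832 and 497 counts.

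The 2 mediators lay between the limits. TP53BP1, which shields broken ends from resection, had 662 and 727 counts, 1.29-fold higher (1.16 to 1.43). MDC1, a scaffold that binds phosphorylated H2AX, had 174 and 120 counts, 1.24-fold lower (0.974 to 1.57). MDC1 stands on 8 rows of the files and only 1 of them held counts, so summing its rows changed nothing. Of these 6 genes, 1 was higher, 2 were lower and 3 lay between.

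All 3 subunits of the MRN complex, which tethers and trims broken ends and recruits ATM, had fewer scaled counts in the knockdown library. RAD50, the ATPase, had 2186 and 1376 counts, 1.35-fold lower (1.27 to 1.45). MRE11A, the nuclease (now named MRE11), had 680 and 433 counts, 1.34-fold lower (1.19 to 1.51), so the counts of MRE11A per RAD50 count were 0.311 and 0.315. NBN, the nibrin subunit that binds ATM, had 687 and 345 counts, 1.70-fold lower (1.49 to 1.94), the only one of the 3 past 1.5-fold. After centring on 3' base composition NBN stood at a log2 ratio of -0.47, short of the limit.

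In homologous recombination the 2 large BRCA genes had more scaled counts and their partners fewer. BRCA1, a ubiquitin ligase that promotes resection, had 987 and 1210 counts, 1.44-fold higher (1.32 to 1.57). BRCA2, a mediator of strand exchange, had 287 and 371 counts, 1.52-fold higher (1.3 to 1.78); with the added 1 CPM its log2 ratio of 0.58 stopped just short of the limit. PALB2, which joins BRCA2 to BRCA1, had 61 and 22 counts, 2.36-fold lower (1.43 to 4.04); it passed the count limit through the control library, and its call was lost with a pseudocount of 5. BARD1, the ring finger partner of BRCA1, had 401 and 265 counts, 1.29-fold lower (1.10 to 1.51).

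RAD51C and XRCC2, 2 further recombination genes, differed by less than counting error. RAD51C had 136 and 100 counts, with a ratio of 0.862 (0.659 to 1.12), and XRCC2 had 69 and 61 counts, with a ratio of 1.04 (0.723 to 1.49). Within this group 0 genes were called higher, 1 lower and 5 between.

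The 3 Fanconi anemia members, which act on interstrand crosslinks, all lay between the limits. FANCD2 had 800 and 713 counts, with a ratio of 1.05 (0.944 to 1.16), and FANCI, its partner in the ID2 clamp, had 1131 and 914 counts, with a ratio of 0.948 (0.868 to 1.04). The signs of these 2 small ratios were not stable: that of FANCD2 turned under total-count scaling and after centring on 3' base composition, and that of FANCI after centring. FANCA, of the core ubiquitin ligase, had 397 and 468 counts, 1.38-fold higher (1.21 to 1.58); exons of ZNF276 overlap it on the other strand.

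In end joining the 2 subunits of Ku, the ring that binds broken ends, parted. XRCC6, which encodes Ku70, had 1719 and 2650 counts, 1.81-fold higher (1.70 to 1.92). XRCC5, which encodes Ku80, had 3035 and 1887 counts, 1.37-fold lower (1.29 to 1.45). PRKDC, the catalytic subunit of DNA-PK that Ku recruits, had 1143 and 686 counts, 1.42-fold lower (1.29 to 1.56), close to XRCC5.

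XRCC6 has 5 named pseudogenes that can share its reads, and its 3' end holds 54.0% G+C against 37.7% for XRCC5. Centred on 3' base composition, the log2 ratios of XRCC6 and XRCC5 were 0.36 and -0.27, so that the contrast was smaller but kept its direction. XRCC4, the scaffold for ligase IV, had 134 and 65 counts, 1.76-fold lower (1.3 to 2.40). LIG4, the ligase itself, had 28 and 6 counts and was under the count limit. Under total-count scaling XRCC5 and PRKDC also passed 1.5-fold lower.

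Of the 6 base excision and single-strand break repair members, 5 had more scaled counts after ADGRF4 siRNA, the exception being APEX1. Over all compared symbols, 5769 of 11771 had a log2 ratio above 0. This was not a trait of the wider pathway. Of the 23 further genes listed for it (below), 9 had a log2 ratio above 0 and 14 below, with a median of -0.03. LIG3, the ligase of nuclear and mitochondrial single-strand break repair, had 425 and 561 counts, 1.55-fold higher (1.36 to 1.76). XRCC1, the scaffold that holds LIG3, had 284 and 373 counts, 1.54-fold higher (1.32 to 1.80). UNG, which removes uracil, had 683 and 820 counts, 1.41-fold higher (1.27 to 1.56).

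APEX1, the endonuclease that cuts the site UNG leaves, had 543 and 243 counts, 1.91-fold lower (1.63 to 2.23). LIG1, which seals Okazaki fragments and long patches, had 640 and 765 counts, 1.40-fold higher (1.26 to 1.56), and PARP1, the poly(ADP-ribose) polymerase that senses nicks, had 1812 and 1744 counts, 1.13-fold higher (1.06 to 1.21). The group's median log2 ratio was 0.48, or 0.28 after centring on 3' base composition, with 2 called higher, 1 lower and 3 between. The calls of LIG3 and XRCC1 are close to the limit and were lost with total-count scaling, as was that of CHEK1.

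Reads of genes on both strands may bear on several of these values. Exons of LIG3 are overlapped on the other strand by RFFL, with 331 and 117 counts, and by CCT6B, with 52 and 21, both lower while LIG3 was higher. Exons of APEX1 are overlapped by TMEM55B, with 330 and 526 counts, higher while APEX1 was lower. Whether strand was used in counting is not given, and in all 19 of the 35 genes share exons with an annotated gene on the other strand. Overlap was scored over any exon, so it need not lie at the 3' ends that were counted.

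In nucleotide excision repair, ERCC2, the XPD helicase of TFIIH, stood apart. Its counts were 25 with control siRNA and 84 with ADGRF4 siRNA, 3.94-fold higher (2.5 to 6.43). It passed the count limit through the knockdown library. KLC3, a kinesin light chain whose exons overlap ERCC2 on the other strand, had 9 and 40 counts, 5.21-fold higher (2.49 to 12.2). Without strand, reads within the stretch that the pair shares cannot be separated.

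The other excision genes were nearer to 1. ERCC3, the XPB helicase of TFIIH, had 193 and 128 counts, 1.29-fold lower (1.02 to 1.62), and XPA, which verifies the lesion, had 258 and 177 counts, 1.24-fold lower (1.02 to 1.51). ERCC1, which with XPF cuts on the 5′ side, had 1299 and 1453 counts, 1.31-fold higher (1.22 to 1.42). It is overlapped on the other strand by CD3EAP, with 1020 and 1429 counts, 1.64-fold higher (1.52 to 1.78).

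Both mismatch repair members had fewer counts. MSH6, which recognises base mismatches, had 1770 and 918 counts, 1.64-fold lower (1.52 to 1.78). PMS2, which cuts the strand to be corrected, had 33 and 10 counts and was under the count limit; with 11 named pseudogenes, its reads are also uncertain. Centring on 3' base composition left MSH6 at a log2 ratio of -0.43, short of 1.5-fold.

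**Figure D2:**
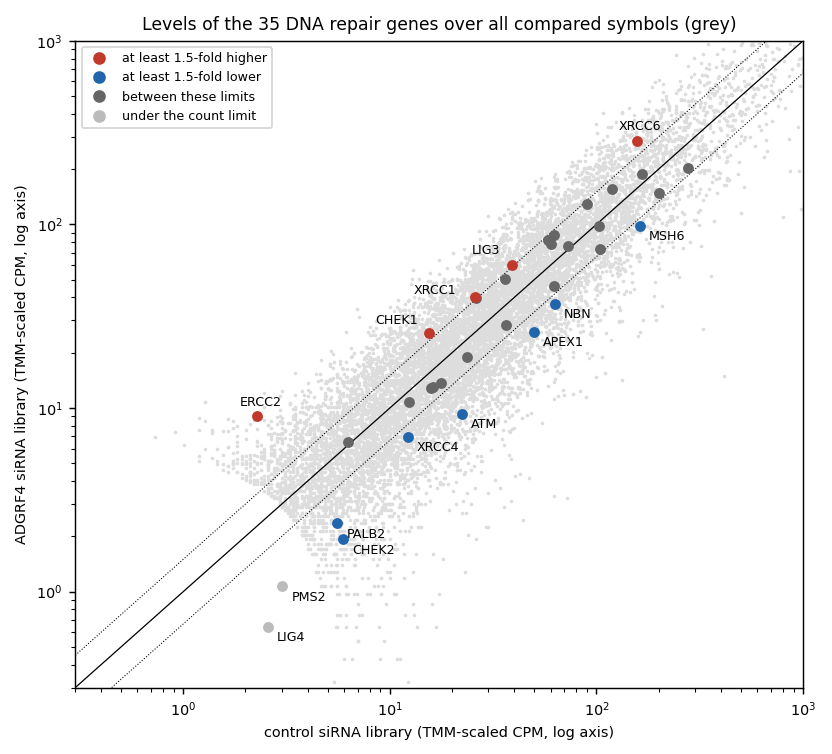
TMM-scaled CPM in the ADGRF4 siRNA library against the control library (log axes), the 35 repair genes in colour over all compared symbols in grey; solid line, equal levels, dotted lines, 1.5-fold; symbols over 1000 CPM are outside the frame. The repair genes run from 2.28 CPM (ERCC2) to 277 CPM (XRCC5) in the control among those compared, and XRCC6 is the only called gene over 100 CPM that lies above the diagonal.

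Partners in 1 complex or successive steps were then set against each other by the quotient of their counts within each library, which no library scaling enters. Of 14 such pairs, 7 shifted by at least 1.5-fold (50%). Over every pair of compared symbols, 58.1% had log2 ratios that far apart, so these partners were called apart at a share near that background. XRCC6 per XRCC5 count went from 0.566 to 1.40, a shift of 2.48-fold (2.28 to 2.70). BRCA2 per PALB2 went from 4.70 to 16.9, a shift of 3.58-fold (2.11 to 6.27), and BRCA1 per BARD1 from 2.46 to 4.57 (1.86-fold, 1.55 to 2.22).

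Further pairs also passed 1.5-fold. ERCC2 per ERCC3 went from 0.130 to 0.656, 5.07-fold (3.01 to 8.70), CHEK1 per ATR from 0.960 to 1.98, 2.06-fold (1.5 to 2.82), and UNG per APEX1 from 1.26 to 3.37, 2.68-fold (2.23 to 3.23). ERCC1 per ERCC4, the gene of its partner XPF, went from 4.37 to 12.1, 2.77-fold (2.20 to 3.50). Each shift rests on 1 library per treatment.

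Some partners kept their quotient within counting error. MRE11A per RAD50 changed by 1.01 (0.879 to 1.16), XRCC1 per LIG3 by 0.995 (0.811 to 1.22), PRKDC per XRCC5 by 0.965 (0.863 to 1.08) and FANCI per FANCD2 by 0.907 (0.792 to 1.04). After centring on 3' base composition, XRCC1 and LIG3 differed by a log2 ratio of -0.79, past 1.5-fold. In the same order, the other pairs of this list differed by 0.15, -0.05 and 0.30. CHEK2 per ATM changed by 0.777, but its interval of 0.410 to 1.42 is wide, because CHEK2 had few counts. NBN per RAD50 changed by 0.798 (0.687 to 0.925), a shift past counting error and under 1.5-fold.

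**Figure D3:**
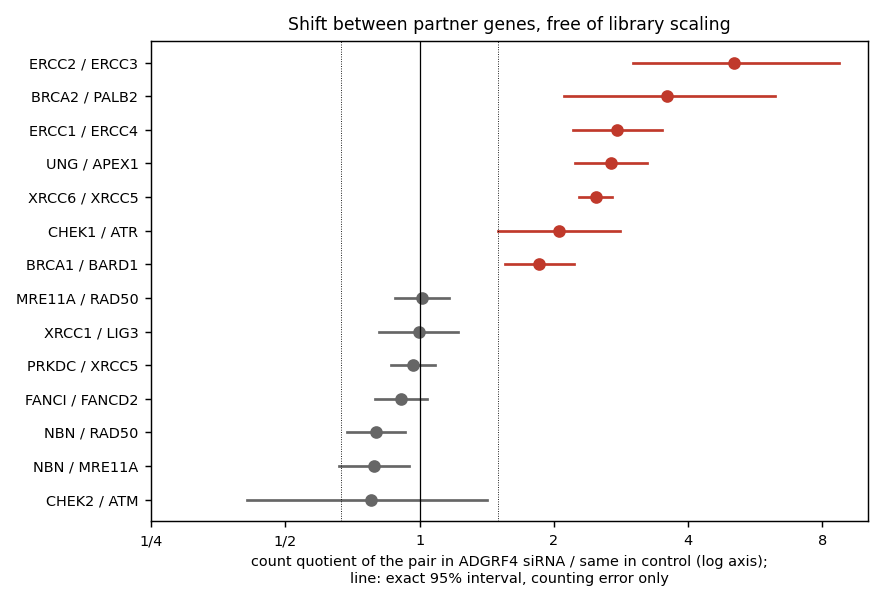
Change in the count quotient of 14 gene pairs, ADGRF4 siRNA over control siRNA (log axis), with exact 95% intervals for counting error; dotted lines mark 1.5-fold. Of the pairs, 7 lie outside the dotted lines, ERCC2 per ERCC3 being the outermost at 5.07, while MRE11A per RAD50 and XRCC1 per LIG3 lie at 1.01 and 0.995.

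The ratios of these genes went with 3' end G+C content, as they did over all genes. For each gene G+C was counted over the final 300 bases of its longest GENCODE 29 transcript, which may not be the 3' end used in these cells. Across the 33 compared repair genes the correlation with the log2 ratio was 0.53 (Pearson) and 0.37 (Spearman), and across 11520 compared symbols 0.44 and 0.46; genes of 1 library pair are not independent replicates. Of the 20 repair genes under 40% G+C, 2 were at least 1.5-fold higher (10%) and 6 lower (30%), against 6.48% and 31.1% of all such symbols. Of the 13 at 40% or more, 3 were higher (23.1%) and 1 lower, against 34.7% and 14.5%.

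Centred on the median of 20 bins of 3' G+C content, the list's median log2 ratio was -0.08. In all, 7 calls did not depend on this step: ATM (-0.82), CHEK2 (-1.32), PALB2 (-0.63) and APEX1 (-0.76) still lay past 1.5-fold lower, and CHEK1 (1.02), LIG3 (0.90) and ERCC2 (0.89) past 1.5-fold higher. NBN, XRCC4, MSH6, XRCC6 and XRCC1 no longer did, and BRCA1 (0.66), BRCA2 (0.81) and UNG (0.67) now did. CHEK1 and LIG3 have AT-rich 3' ends (29.7% and 31.7% G+C) and were called higher. Of the 5598 compared symbols under 40% G+C, 3836 had a log2 ratio below 0 before centring, and 6.48% were called higher.

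**Figure D4:**
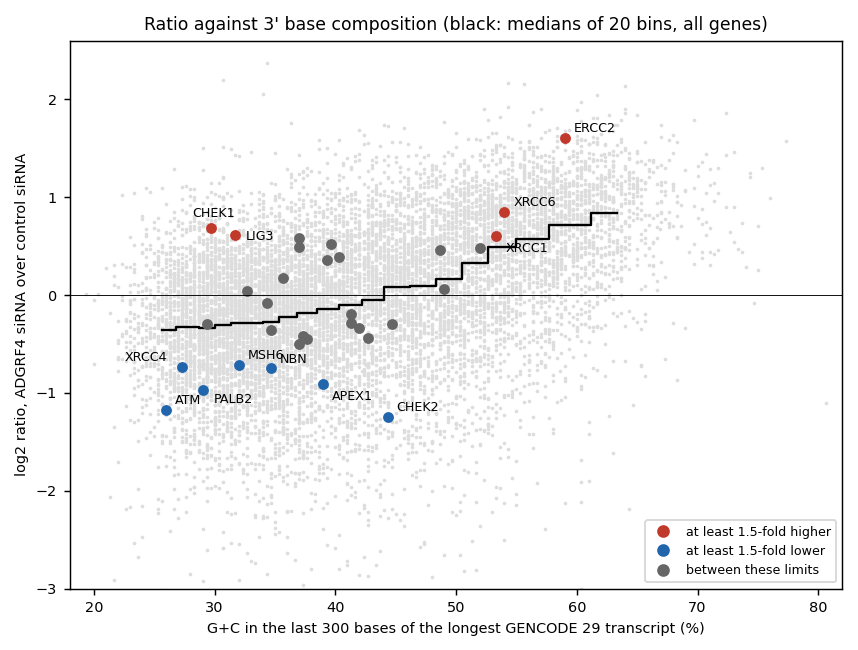
Log2 ratio, ADGRF4 siRNA over control siRNA, against 3' end G+C (%, final 300 bases of the longest annotated transcript), the 33 compared repair genes in colour over all compared symbols in grey; the black step line joins medians of 20 bins, and symbols below -3 are outside the frame. CHEK1 (29.7% G+C) and LIG3 (31.7%) lie far above the line, CHEK2 (44.3%) and ATM (26.0%) below it.

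A further 128 repair genes, listed by pathway with earlier results of these data known, were read the same way. Compared were all but ERCC5, ERCC8 and XAB2, which were under the count limit. Of these, 15 were at least 1.5-fold higher (12%, against 21.1% of all symbols) and 30 lower (24.0%, against 22.3%), with a median log2 ratio of -0.18. The 6 lowest were RAD54L, a motor protein of recombination (420 and 49 counts, 7.31-fold lower, 5.43 to 10.0), CCNH, UBE2T, TDP2, MUS81 and GTF2H5. UBE2T, the conjugating enzyme that FANCA's ligase uses on FANCD2, had 355 and 67 counts, 4.52-fold lower (3.47 to 5.96). TDP2, which frees ends blocked by topoisomerase II, stood at 13.0 and 2.57 CPM, 5.04-fold lower (3.26 to 8.13), and the crossover nuclease MUS81 at 13.0 and 2.68 CPM, 4.84-fold lower (3.15 to 7.73). RAD54L, CCNH and MUS81 share exons with genes on the other strand.

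Among the 6 highest were MGMT, XRCC3, NTHL1, POLL and RECQL5. MGMT, which takes alkyl groups off guanine, had 553 and 1599 counts, 3.39-fold higher (3.08 to 3.74). XRCC3, the partner of RAD51C, had 166 and 408 counts, 2.88-fold higher (2.40 to 3.47), while RAD51C was not. NTHL1, a glycosylase for oxidised pyrimidines, had 384 and 902 counts, 2.76-fold higher (2.44 to 3.11), and POLL, a gap-filling polymerase of end joining, had 199 and 470, 2.77-fold higher (2.34 to 3.29). The helicase gene RECQL5 was 2.0-fold higher. These 5 have GC-rich 3' ends of 51.7% to 63.3%, and after centring NTHL1 stood at a log2 ratio of 0.60. Each of the 5 also shares exons with an annotated gene on the other strand.

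Against 22.3% of all symbols at least 1.5-fold lower, or 19.2% after centring, the pathways with the lowest medians are described here, chosen after their values were seen. Of 10 Fanconi anemia genes, 6 were lower and 0 higher (median log2 ratio -0.71, and -0.55 after centring, with 3 lower), beside the 3 Fanconi members above that lay between the limits. Of 17 nucleotide excision genes compared, 9 were lower and 1 higher (median -0.65, and -0.64 after centring, again with 9 lower). Of these 9, 6 encode subunits of TFIIH, to which ERCC2 and ERCC3 belong. GTF2H5, its small stabilising subunit, had 711 and 161 counts, 3.77-fold lower (3.17 to 4.50), and CCNH, the cyclin of its kinase module, had 59 and 3 counts, a ratio of 0.0596 (0.0120 to 0.183). CCNH passed the count limit through the control library, as did ERCC6 (71 and 29 counts) and the Fanconi gene FANCB (64 and 27), both among those called lower.

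The other kinase subunits, looked up after their values were seen, were lower too: CDK7, with 127 and 36 counts, by 3.01-fold (2.06 to 4.48), and MNAT1, with 182 and 49, by 3.17-fold (2.3 to 4.43). ERCC2, with the limits given above on its count and on KLC3, was the only one of the 10 TFIIH genes listed that was at least 1.5-fold higher. GTF2H4, to which the XPB helicase binds, had 227 and 271 counts, 1.40-fold higher (1.17 to 1.68), and stood at -0.25 after centring. The damage sensors DDB1 and DDB2 also parted, with 1540 and 883 counts against 449 and 682.

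**Figure D5:**
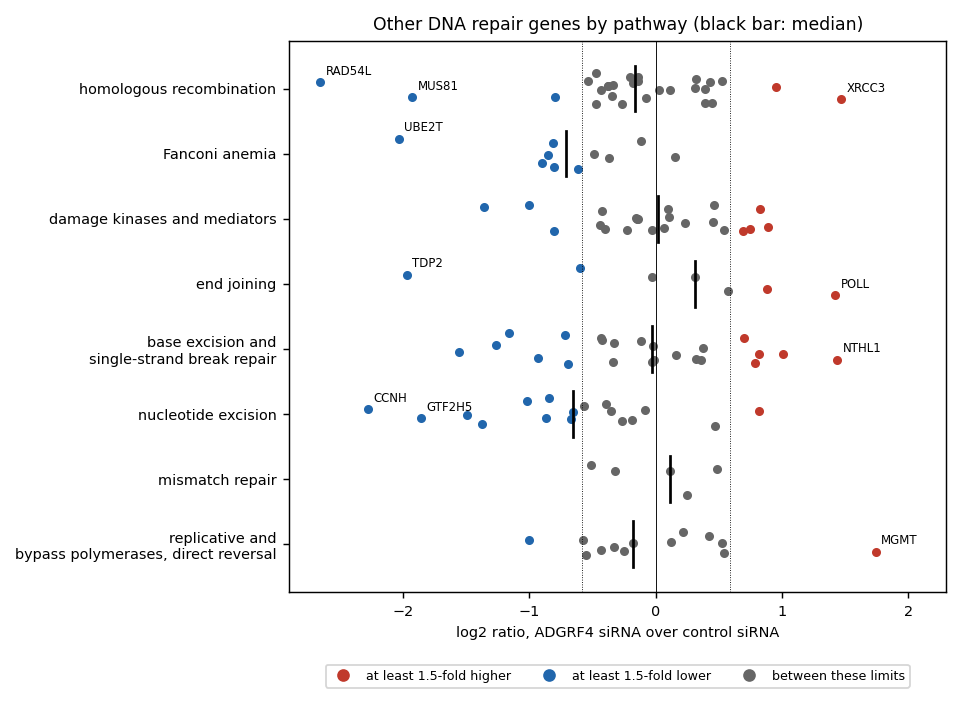
Log2 ratio, ADGRF4 siRNA over control siRNA, of the further repair genes by pathway; each point is 1 gene, black bars are medians, dotted lines mark 1.5-fold and the 6 lowest and 4 highest are named. Fanconi anemia (median -0.71) and nucleotide excision (median -0.65) lie furthest to the left, with RAD54L at -2.65 and MGMT at 1.74 at the ends.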

How the data were processed

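Messenger RNA 3' ends were profiled with the Lexogen QuantSeq kit, per the labels' protocols. The authors deposited raw counts, as whole numbers for each symbol. Bowtie2, edgeR and genome build hg19 are named in the submitters' processing notes; what each was used for, the annotation, the strand mode and the treatment of multi-mapped reads were not stated in them. Rows of 1 symbol were summed.

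Counts were scaled by TMM in edgeR 4.0.16 under R 4.3.3, a pseudocount of 1 CPM was added for log2 ratios, and the 11771 symbols averaging 30 counts or more per library were compared. Calls are by size alone, at 1.5-fold. Intervals of folds are exact Clopper-Pearson intervals, and those of count quotients are exact conditional intervals of the odds ratio (scipy 1.17.1). PCR duplicates are not independent molecules, so intervals cover counting error only. G+C content came from GENCODE 29 transcripts (GRCh38) and was found for 97.9% of compared symbols; no annotation coordinates are printed. Promoters are from RefSeq on GRCh38.p14, and 31 of 35 members were matched by symbol. Motifs were counted over all listed windows of a gene, a choice made after the windows were seen; first windows are given as an alternative added then. The ratio and interval calculations were tested on simulated data.

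Every member is described; of the other repair genes the 6 highest and 6 lowest are named, with partners of members; some of these are not reported here. The members, lists and alternatives were chosen with earlier results of these data known. Alternatives were total-count, upper-quartile and DESeq2 1.42.0 scaling, pseudocounts of 0.1 and 5, other count limits, a 2-fold limit, single rows per symbol and centring on 3' G+C content.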

Additional observations from a re-analysis of the deposited data

How the results depend on the processing

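No paired analysis was possible because each treatment has 1 library. With total-count scaling, 2 of the 33 repair genes were at least 1.5-fold higher and 9 lower, in place of 5 and 7. That scaling shifts every ratio down, and the share of all symbols called under it was not computed. CHEK1, XRCC1 and LIG3 lost their calls and XRCC5 and PRKDC gained one. Nor was that share computed for the other pseudocounts and count limits, so counts of calls under these have no background. With a pseudocount of 5, 2 were higher and 5 lower; CHEK1, XRCC1, LIG3, PALB2 and XRCC4 lost their calls. At a 2-fold limit 1 was higher and 2 lower, and among the other repair genes 5 and 14 in place of 15 and 30. A mean count limit of 100 leaves 28 repair genes and 100 others. Of these, 4 and 19 were lower, in place of 7 and 30. Each of the 28 kept its call. The lower calls of CHEK2, PALB2 and XRCC4 and the higher call of ERCC2 went because these genes averaged under 100 counts. After centring on 3' G+C content 4 of the repair genes were lower. The median log2 ratio of the repair genes stayed below 0 under each alternative run, from -0.33 with total-count scaling to -0.08 after centring. Upper-quartile scaling and keeping the rows of 1 symbol apart changed no call among the 33, and DESeq2 size factors and a pseudocount of 0.1 each added BRCA2. Depth limits CHEK2, PALB2, ERCC2, LIG4 and PMS2, which had under 30 counts in 1 or both libraries.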

Other observations

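Several repair genes start within 1000 bases of a gene on the other strand in GENCODE 29. Of 13 such pairs with both genes compared, 8 had log2 ratios of the same sign and 5 of opposite sign. No such count was made over other genes, so this split is not a result about the repair genes. Among the same-sign pairs, NBR1 beside BRCA1 and C19orf68 beside LIG1 lay at only 0.0035 and 0.0031, and the sign of FANCD2 was not stable. CHEK2 and HSCB, a mitochondrial co-chaperone, were both lower: HSCB had 122 and 53 counts, 1.96-fold lower (1.41 to 2.76). Exons of CHEK2 and HSCB overlap, as do those of ATM and NPAT. Without strand, reads within a shared stretch cannot be separated, but whether the counted 3' ends lie there was not examined. APEX1 and OSGEP, of the tRNA-modifying KEOPS complex, were both lower too, with 100 and 44 counts for OSGEP, 1.94-fold (1.35 to 2.83). PALB2 was lower while DCTN5, a dynactin subunit, had 621 and 811 counts, 1.53-fold higher (1.38 to 1.70). PRKDC lay at a log2 ratio of -0.50 and MCM4, a subunit of the replicative helicase, at 0.38, with 1767 and 1966 counts. LIG3 was higher and CCT6B, at its start, lower. ATM was 2.39-fold lower, while NPAT, a histone gene coactivator, had 409 and 264 counts, 1.32-fold lower (1.13 to 1.55), and lay between the limits. XRCC6 was higher, and DESI1 had 388 and 295 counts, with a ratio of 0.892 (0.764 to 1.04).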
